A study of Rattus norvegicus with 10 samples.

Results

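Transcripts of the circadian clock were measured by RNA sequencing in 10 male TgF344-AD rats, in the left hippocampus, at 11 months of age. The genes followed were Per1, Per2, Per3, Dbp, Nr1d1, Nr1d2, Ciart, Arntl, Clock and Bhlhe41, taken by name from the deposited tables. Of these 10 genes, 9 were found among the 17168 genes of the tables, Ciart under its older name RGD1566380, and Bhlhe41 was not analysed here. All 9 passed the filter on low counts, as did 12161 genes in all. This strain models Alzheimer's disease through transgenes that a prion promoter drives. Every rat was male and transgenic. The untreated group was 5 rats on rodent chow. The RG2833 group was 5 rats on chow with RG2833 mixed in at 750 mg per kg, from 5 months of age for 6 months. RG2833 blocks HDAC1 and HDAC3, enzymes that remove acetyl groups from histones. A sentence of the design text names ibudilast as the drug, whereas the title and the treatment label of each sample name RG2833, and these were followed. Each library is 1 rat. The rats were anaesthetised and perfused before the hippocampus was frozen, and the hour of collection is not in the labels, so each library is a single reading at an unknown clock time.

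The circadian clock of a mammalian cell is a feedback loop of transcription. CLOCK or its relative NPAS2 pairs with BMAL1, the product of Arntl, and switches on genes that carry E-box sequences, among them the Per and Cry genes, Nr1d1, Nr1d2, Ciart and Dbp. PER and CRY proteins then repress that pair, and the nuclear receptors encoded by Nr1d1 and Nr1d2 repress Arntl through RORE sequences, so that in tissues sampled around the clock Arntl peaks at about the time when Nr1d1 and Dbp are low. The hippocampus has such a clock, which takes its timing from the suprachiasmatic nucleus of the hypothalamus. Dbp encodes a transcription factor that passes the rhythm on to genes with D-box sequences.

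Promoter sequences show which of these elements lie next to the members' annotated starts. They came from RefSeq on the rat assembly GRCr8, each with 250 bases before a gene's start and 50 after it. All 9 genes matched, with 11 promoters in all, since Nr1d1 and Clock have 2 starts each and Arntl is listed there as Bmal1. On both strands, CACGTG (the E-box), CACGTT (the E-prime box), TTATGTAA and TTACGTAA (the D-box) and 2 forms of the RORE were searched. CACGTG and TTACGTAA read the same on both strands, and CACGTG and CACGTT share their first 5 letters but cannot match the same 6 bases. The lines below show each match with its surroundings, 30 bases from 5′ to 3′ on the gene's strand, with the match in capitals.
Per2, E-prime box, chr9:99497038-99497067, minus strand: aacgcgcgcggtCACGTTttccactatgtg
Per2, D-box, chr9:99497167-99497196, minus strand: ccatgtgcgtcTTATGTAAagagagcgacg
Nr1d1, first start, E-prime box read on the other strand, chr10:84231969-84231998, minus strand: cgcatagagctcAACGTGcccgctgctgga
Nr1d1, the other start, E-box, chr10:84229628-84229657, minus strand: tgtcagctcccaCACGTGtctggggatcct
Ciart, E-box farthest from the start, chr2:186112322-186112351, minus strand: tgtatctagagtCACGTGttgccggcaaag
Ciart, middle E-box, chr2:186112264-186112293, minus strand: cgcagggggaggCACGTGcagagccgcacg
Ciart, E-box nearest to the start, chr2:186112250-186112279, minus strand: cgtgcagagccgCACGTGtctgggaggggg
Arntl, RORE, chr1:176766299-176766328, plus strand: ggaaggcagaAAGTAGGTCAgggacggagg

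The Per2 E-prime box begins 62 bases and its D-box 192 bases before the annotated start, and the Arntl RORE begins 19 bases before it. Ciart holds 3 E-boxes, beginning 93, 35 and 21 bases before its start. Over all 33469 promoters of the table, 6.42% hold CACGTG, 4.83% CACGTT, 0.893% TTATGTAA, 0.12% TTACGTAA, 0.245% the form of the RORE found in Arntl and 0.128% the other form. Per1, Per3, Dbp, Nr1d2 and Clock have none of these letters within these windows. A match describes the sequence only.

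Library depth was similar, from 15118203 to 18533520 expected counts. Expected counts are the numbers of reads that RSEM assigns to a gene. Levels below are CPM, counts scaled to the size of each library after TMM normalization, which evens out differences in composition. They are not per length, so levels are compared between libraries and not between genes. Of the 12161 genes tested in edgeR, 0 passed at an adjusted p under 0.05 and 688 had an unadjusted p under 0.05, while DESeq2 called 7. The 688 became 1732 when untreated replicate 3 was left out, 375 when RG2833 replicate 4 was, and 424 when RG2833 replicate 5 was. Some libraries stood apart in their tissue markers. In untreated replicate 3 the 4 dentate granule markers matched of 5 listed summed to 28.8 CPM, against 86.8 to 229 CPM in the other 9 libraries. Prox1, which marks granule neurons, was at 4.30 CPM there and at 21.5 to 50.5 CPM elsewhere. The 4 CA3 markers summed to 108 CPM there, and to 213 and 146 CPM in RG2833 replicates 4 and 5, against 340 to 445 CPM in the remaining 7; Iyd of that list was at 0 in some libraries. The 6 choroid plexus markers summed to 7608 CPM in untreated replicate 2 and 8938 CPM in RG2833 replicate 1, against 7.54 to 267 CPM in the other 8; Folr1 of that list was at 0 in some. In bulk tissue, fewer cells of a type and less RNA per cell cannot be told apart.

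No clock gene passed the test between RG2833 and untreated rats. In edgeR's quasi-likelihood fit, 0 of the 9 genes were called at an adjusted p under 0.05, as were 0% of all genes, and the smallest adjusted p among them was 0.841. The 7 genes that CLOCK and BMAL1 switch on, called target genes below, all had lower means in RG2833, and Arntl and Clock had higher means. Log2 fold changes ran from -0.58 for Ciart to 0.08 for Arntl, with a median of -0.09, against -0.01 over all genes tested. At an unadjusted p under 0.05 there was 1 of 9 (11.1%), Ciart, against 5.66% of all genes in either direction and 2.71% in the lower direction. The groups overlapped for each of the 9 genes, while they did not for 1.00% of all genes. Without untreated replicate 3, 4 members in place of 7 were lower in RG2833 and the median was 0.02: Per2, Dbp and Nr1d1 changed sign.

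**Figure D1:**
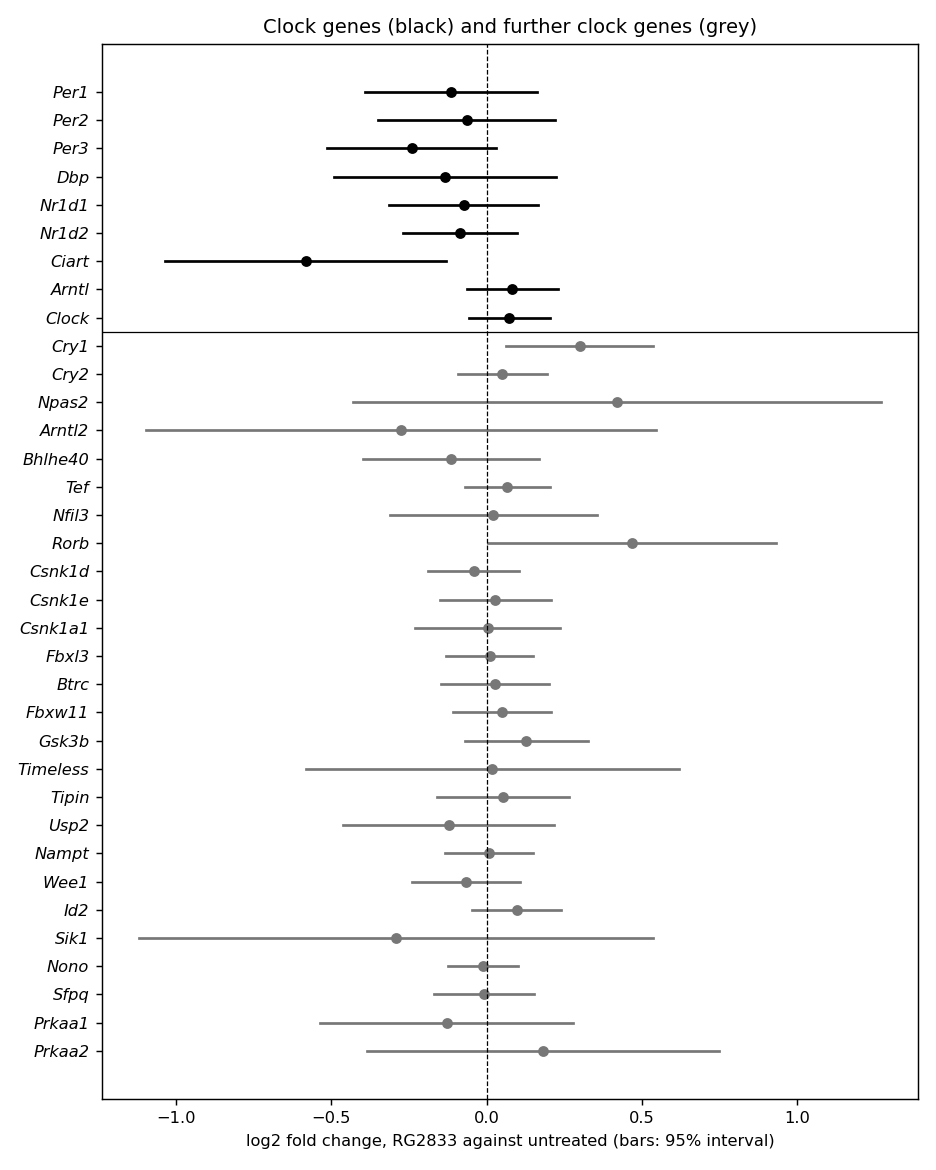
Log2 fold change of each clock gene (black) and further clock gene (grey) in RG2833 against untreated rats, 5 libraries in each group, from edgeR's quasi-likelihood fit; dots are estimates and bars are 95% intervals. Among the 9 black genes the interval of Ciart alone lies wholly below 0, from -1.03 to -0.13, before any adjustment for the number of genes tested.

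The Period genes encode the repressors whose proteins enter the nucleus and shut off CLOCK and BMAL1. Per1, which also responds acutely to light and glucocorticoids, was at 64.3, 73.3, 70.1, 56.1 and 54.5 CPM in untreated replicates 1 to 5. It was at 45.4, 63.3, 55.2, 71.5 and 58.7 CPM in RG2833 replicates 1 to 5. RG2833 replicate 1 was the lowest library and untreated replicate 2 the highest, and the groups overlapped over most of their range. The means were 63.7 ± 8.35 CPM without and 58.8 ± 9.66 CPM with RG2833 (SD, n = 5 each), and the log2 fold change was -0.11 (SE 0.13), which ran from -0.19 (RG2833 replicate 4 left out) to -0.03 (RG2833 replicate 1 left out) over the fits that lack a single library. It turned to 0.01 without untreated replicate 2 and RG2833 replicate 1, the 2 libraries rich in choroid plexus markers.

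Per2, a core repressor of the loop, was at 33.5, 32.7, 49.2, 35.1 and 31.9 CPM in the untreated rats and at 32.0, 30.5, 35.1, 35.4 and 41.3 CPM in the RG2833 rats. Untreated replicate 3 was above every other library and RG2833 replicate 5 came next, while the remaining 8 lay between 30.5 and 35.4 CPM. The log2 fold change was -0.06 (SE 0.13), and 0.07 (SE 0.09) without untreated replicate 3. The other fits that lack a single library gave -0.13 (RG2833 replicate 5 left out) to -0.02 (RG2833 replicate 2 left out).

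Per3, a less essential member of the family, was at 15.3, 19.5, 23.9, 19.7 and 17.5 CPM in the untreated rats and at 17.5, 13.8, 16.6, 14.97 and 18.3 CPM in the RG2833 rats. All 5 RG2833 libraries lay below the untreated mean of 19.2 CPM, yet the groups overlapped, since untreated replicates 1 and 5 lay within the RG2833 range. The log2 fold change was -0.24 (SE 0.12; 95% interval -0.51 to 0.03; edgeR adjusted p = 0.841; exact permutation p = 0.127, two-sided), and -0.15 without untreated replicate 3. Leaving out untreated replicate 1 gave -0.31, at an unadjusted edgeR p of 0.0222 (adjusted p = 0.913).

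The nuclear receptors REV-ERBα and REV-ERBβ, encoded by Nr1d1 and Nr1d2, bind haem and recruit the corepressor NCoR with HDAC3, an enzyme that RG2833 inhibits. Nr1d1 was at 109, 112, 147, 112 and 109 CPM in the untreated rats. In the RG2833 rats it was at 108, 99.3, 102, 117 and 134 CPM. Untreated replicate 3 and RG2833 replicate 5 were again the highest of their groups, and the other 4 untreated libraries lay within 108.7 to 112.2 CPM. The log2 fold change was -0.07 (SE 0.11), 0.02 without untreated replicate 3 and -0.14 without RG2833 replicate 5.

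Nr1d2 was at 84.5, 95.1, 104, 105 and 92.3 CPM in the untreated rats and at 91.6, 83.1, 88.7, 84.1 and 105 CPM in the RG2833 rats. The highest untreated and the highest RG2833 library were at the same level. With a log2 fold change of -0.09 (SE 0.08; 95% interval -0.27 to 0.10), it was the most even of the 7 target genes across the 10 libraries, with a highest-to-lowest ratio of 1.27. Leaving out a single library moved its log2 fold change between -0.14 (RG2833 replicate 5) and -0.05 (untreated replicate 4).

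Ciart encodes CHRONO, a repressor that binds BMAL1. It had 49 to 167 counts per library, the fewest of the 9 genes. Its levels were 5.60, 8.04, 9.97, 6.74 and 5.75 CPM in the untreated rats and 4.78, 5.74, 5.12, 3.07 and 5.39 CPM in the RG2833 rats. RG2833 replicate 4 was the lowest library and untreated replicate 3 the highest; all 5 RG2833 libraries lay below the untreated mean, and the groups overlapped only in that RG2833 replicate 2 exceeded untreated replicate 1. The means were 7.22 ± 1.82 CPM and 4.82 ± 1.04 CPM (SD, n = 5 each), with a log2 fold change of -0.58 (SE 0.21; edgeR adjusted p = 0.841; exact permutation p = 0.0159 before any adjustment). The sign was the same in all 22 other fits, from -0.66 without untreated replicate 1 to -0.33 without untreated replicate 3 and RG2833 replicates 4 and 5 together.

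Dbp, the output factor that acts on D-boxes, was at 128, 148, 234, 145 and 154 CPM in the untreated rats. It was at 133, 140, 143, 134 and 188 CPM in the RG2833 rats. Untreated replicate 3 and RG2833 replicate 5 stood above the other 8 libraries, which lay between 128 and 154 CPM in both groups. The means were 162 ± 41.6 and 148 ± 22.8 CPM (SD, n = 5 each), and the log2 fold change of -0.13 (SE 0.16) turned to 0.04 (SE 0.11) without untreated replicate 3, and was -0.23 with RG2833 replicate 5 left out.

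Of the 9 members, Arntl and Clock varied least across the 10 libraries. Arntl was at 25.8, 25.0, 27.5, 26.0 and 24.6 CPM in the untreated rats and at 25.5, 25.7, 27.8, 30.8 and 26.7 CPM in the RG2833 rats, highest in RG2833 replicate 4. Its log2 fold change was 0.08 (SE 0.07; 95% interval -0.06 to 0.23), and 0.04 without that library. Clock, the partner of BMAL1 and itself a histone acetyltransferase, was at 75.4, 75.1, 66.7, 81.0 and 73.4 CPM in the untreated rats. In the RG2833 rats it was at 77.1, 74.0, 81.2, 80.4 and 78.4 CPM. Untreated replicate 3, the highest library for 5 of the 7 target genes, was the lowest for Clock. The log2 fold change of Clock was 0.07 (SE 0.06; 95% interval -0.06 to 0.21), and 0.04 without untreated replicate 3.

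**Figure D2:**
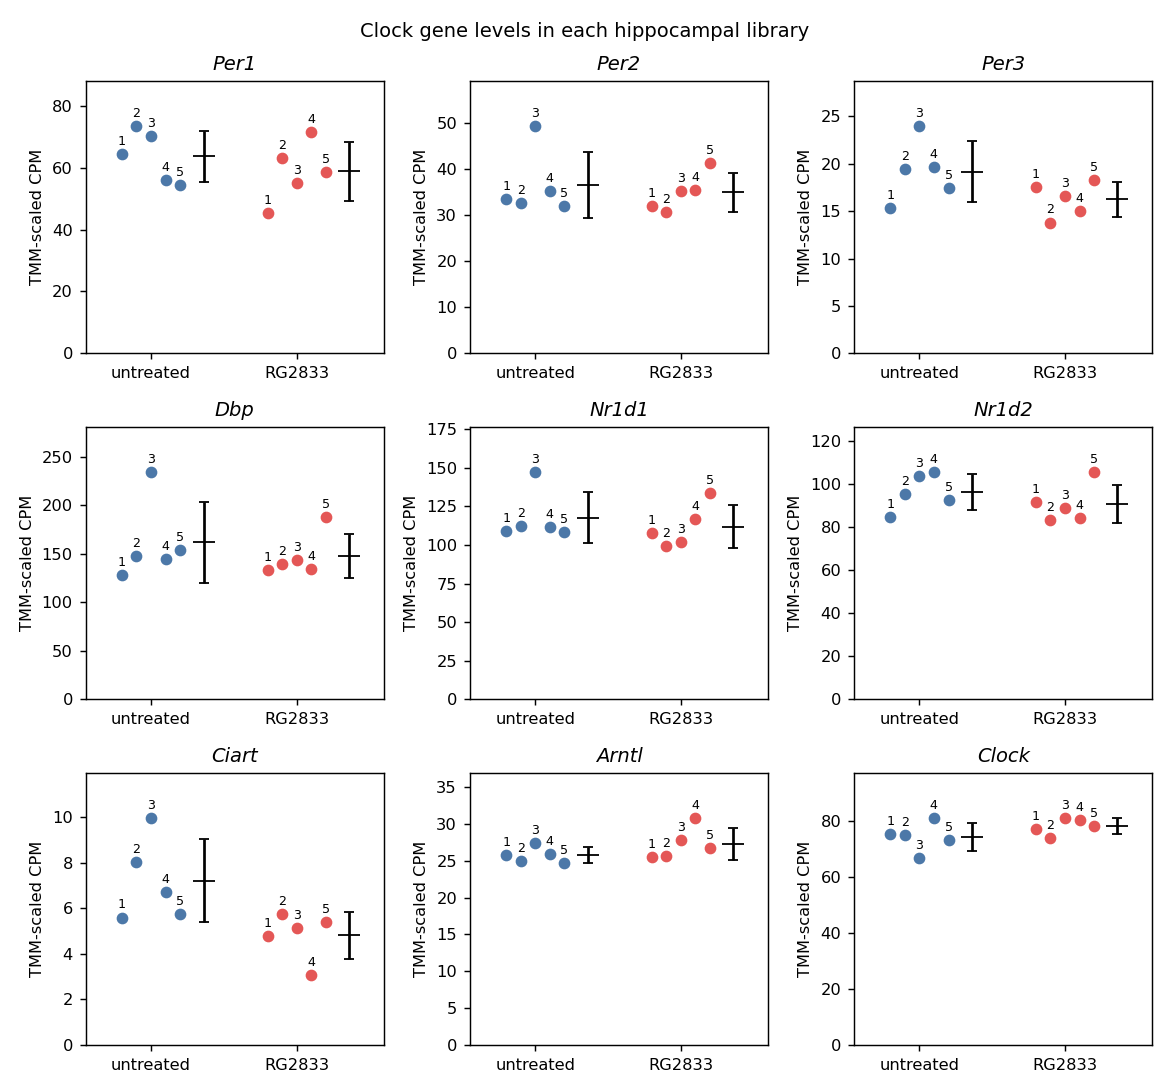
TMM-scaled CPM of the 9 clock genes (vertical axes, starting at 0) in the 5 untreated (blue) and 5 RG2833 (red) libraries; each point is 1 rat with its replicate number, and the bar beside each group is the mean ± SD. Untreated replicate 3 stands above its group for Per2, Dbp and Nr1d1, at 49.2, 234 and 147 CPM, and Arntl and Clock vary little.

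The spread between rats differed among the members. The within-group SD of log2 CPM was 0.08 for Clock and 0.09 for Arntl, at the 8.45 and 11.7 percentile of all genes tested, respectively. Among the 7 target genes it ran from 0.13 for Nr1d2, at the 30.02 percentile, to 0.28 for Dbp (69.4) and 0.35 for Ciart (78.9). The median over the 9 genes was 0.20, against 0.19 over all genes tested. The coefficient of variation over the 10 libraries was 21.0% for Dbp, 31.3% for Ciart, 6.82% for Arntl and 5.77% for Clock. CPM of Ciart carries more counting error than that of the others, given its low counts.

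Genes on opposite arms of the loop were then set against each other within each library. The ratio of Dbp to Arntl CPM was 4.97, 5.93, 8.53, 5.59 and 6.24 in untreated replicates 1 to 5 and 5.22, 5.44, 5.15, 4.35 and 7.03 in RG2833 replicates 1 to 5. RG2833 replicate 4 had the lowest ratio, with Arntl at its highest and Ciart at its lowest. Yet 3 of the 7 target genes, Per1, Per2 and Nr1d1, were above their 10-library mean in that library. Untreated replicate 3 and RG2833 replicate 5 had the highest ratios, with Dbp at rank 1 and rank 2 of the 10 libraries, but Arntl was not low in either, at rank 3 and rank 4. All 7 target genes were above their 10-library mean in untreated replicate 3, and the mean deviation over the 7 was 0.44 on the log2 scale. In RG2833 replicate 5, 5 of the 7 were above it, and the mean deviation over all 7 was 0.12. In RG2833 replicate 3, 0 of the 7 were above it. The other libraries had a mean deviation between -0.17 and 0.11.

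**Figure D3:**
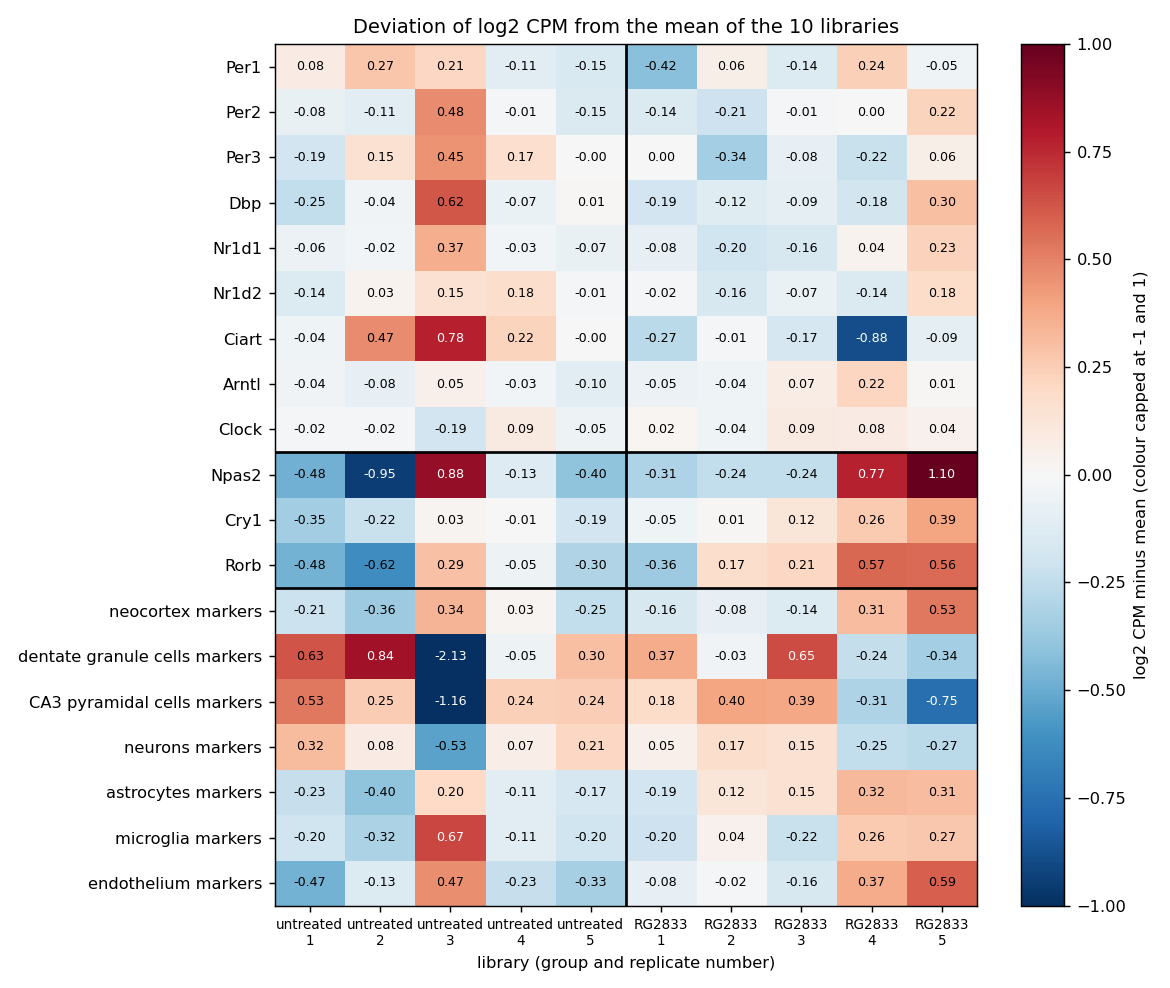
Log2 CPM of each clock gene, of Npas2, Cry1 and Rorb, and the mean of 7 of the marker lists, as the deviation from the mean of the 10 libraries (columns; colour and printed value, colours capped at -1 and 1). Untreated replicate 3 is high in all 7 target genes, Npas2 and the microglia list, and low in the dentate granule and CA3 lists, at -2.13 and -1.16.

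Across the 10 libraries most pairs of target genes varied in the same direction, and no opposite course of Arntl was detected. Of the 21 pairs among the 7 target genes, 20 had a positive Pearson r of log2 CPM, with a median of 0.64. After adjustment over all 36 pairs of the 9 genes, 2 pairs passed, both among these 21. Per2 and Nr1d1 had r = 0.93 (permutation adjusted p = 0.0207; Spearman rho = 0.77, adjusted p = 0.155). Per3 and Nr1d2 had r = 0.86 (permutation adjusted p = 0.0207; rho = 0.90, adjusted p = 0.0310). Dbp had r = 0.89 with Per2 and 0.87 with Nr1d1, both at a permutation adjusted p of 0.0595. For these pairs rho was 0.39 and 0.54, and r fell to -0.12 and -0.07 without untreated replicate 3 and RG2833 replicate 5. Per1 went with the others least, with r from -0.09 with Nr1d2 to 0.36 with Nr1d1.

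The pairs were then taken without the libraries at the ends of the range. Without the 2 libraries farthest from the median of Per2, r of Per2 and Nr1d1 was 0.51. Without the 2 farthest for Per3, r of Per3 and Nr1d2 was 0.86. Without untreated replicate 3, 16 of the 21 pairs were positive, the median was 0.41 and 0 of 36 pairs passed. Per3 and Nr1d2 then had r = 0.88 (permutation adjusted p = 0.0857) and Per2 and Nr1d1 0.84 (0.146). The count of pairs that passed was also 0 when untreated replicate 1, RG2833 replicate 2 or RG2833 replicate 4 was left out in turn, 1 when RG2833 replicate 5 was, and 3 when untreated replicate 4 was. With the group means subtracted the median of the 21 pairs was 0.63.

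For the 14 pairs of Arntl or Clock with a target gene, r ran from -0.68 (Ciart with Clock) to 0.41 (Per2 with Arntl), with a median of -0.25, and 0 passed. That median was 0.12 without untreated replicate 3, with 6 in place of 10 pairs negative, and 0.03 with RG2833 replicate 4 left out. Arntl and Dbp had r = 0.08 (permutation adjusted p = 0.832; rho = 0.01, adjusted p = 1). It was 0.74 without RG2833 replicates 3 and 4, the 2 libraries farthest from the median of Arntl, and -0.37 without untreated replicate 3 and RG2833 replicate 5, the 2 farthest for Dbp, so its sign rests on those libraries. Clock had r = -0.63 with Dbp, and 0.03 without untreated replicate 3. Ciart was the target gene most opposite to Arntl, with r = -0.52 in all libraries and -0.82 without untreated replicate 3 (permutation adjusted p = 0.146). Its rho with Arntl was -0.36. Leaving out untreated replicate 3 and RG2833 replicate 4 together gave r = -0.43, and subtracting the group means gave -0.32.

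**Figure D4:**
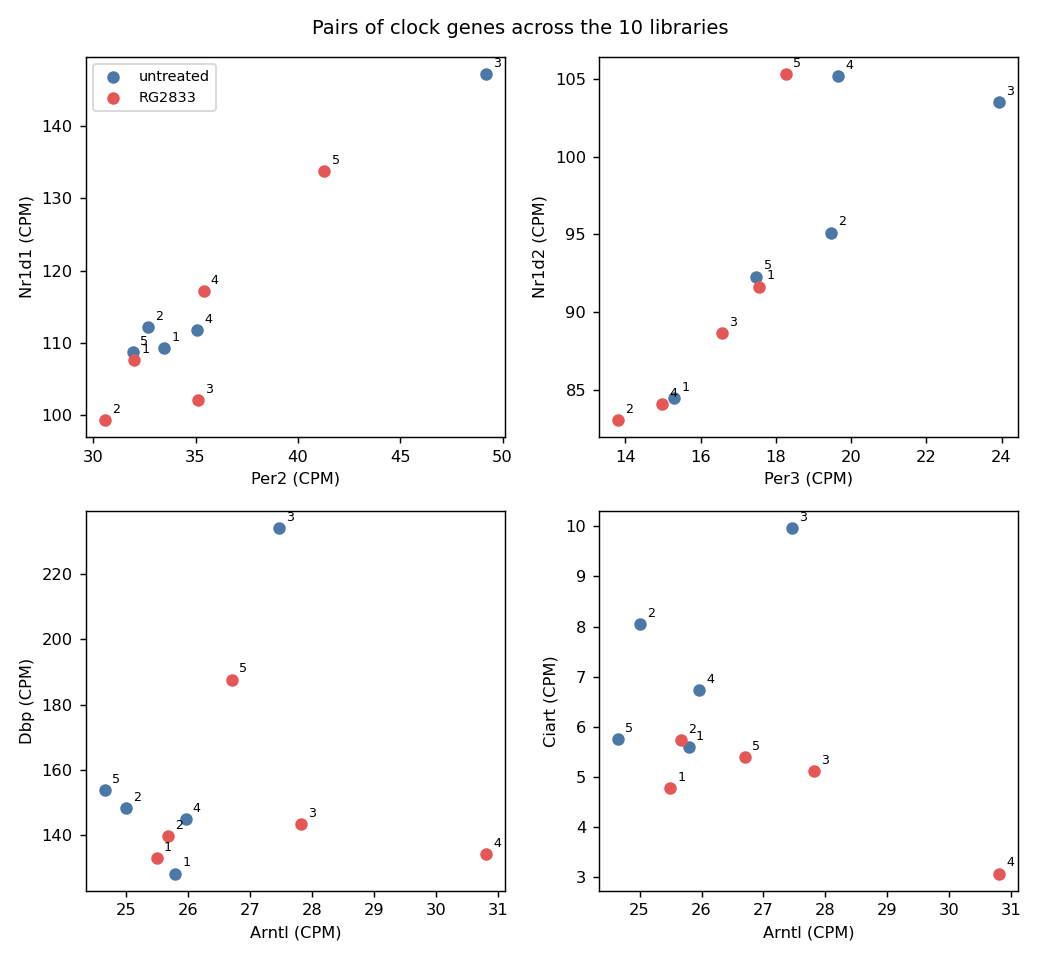
CPM of 4 pairs of clock genes in the 10 libraries (untreated blue, RG2833 red, numbers are replicates; axes do not start at 0). Per2 and Nr1d1 rise together up to untreated replicate 3, at 49.2 and 147 CPM, and Dbp shows no single trend against Arntl.

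**Figure D5:**
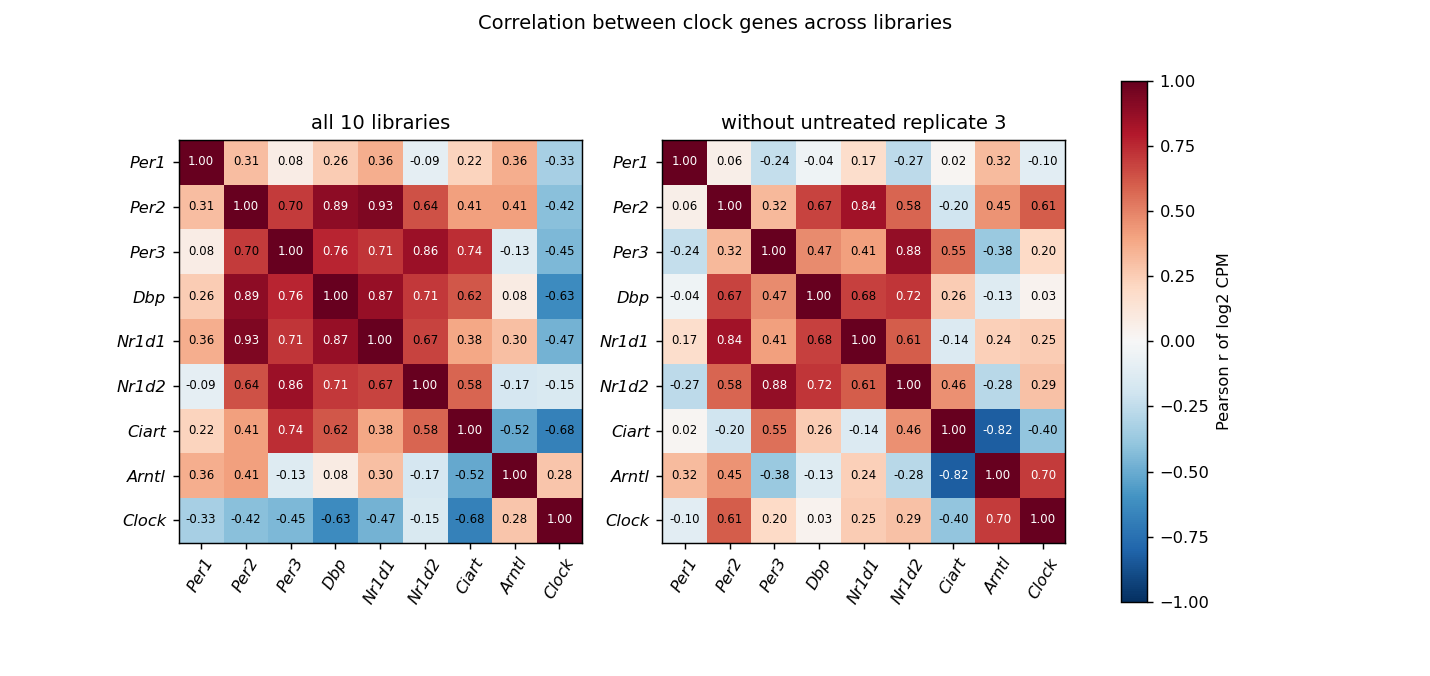
Pearson r of log2 CPM for each pair of clock genes, over all 10 libraries (left) and without untreated replicate 3 (right). On the left the pairs among the 7 target genes have a median r of 0.64, and on the right that median is 0.41. Pairs of Per1 with the other target genes are the lowest on the left, from -0.09 to 0.36.

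Tissue markers moved with the same libraries. The 9 members, and Npas2, Cry1 and Rorb, were compared with 13 marker lists of at least 3 tested genes, which made 155 pairs, leaving out Rorb with the neocortex list that holds it. Of the 117 pairs with a member, 4 passed at a permutation adjusted p under 0.05. Nr1d1 had r = -0.95 with the CA3 pyramidal list (adjusted p = 0.0109) and -0.89 with the neuron list (adjusted p = 0.0241; permutation tests). Per2 had r = -0.91 with the CA3 list (adjusted p = 0.0378) and -0.87 with the neuron list (adjusted p = 0.0415; permutation tests). By Spearman's rho, -0.73 and -0.71 for Nr1d1 and -0.65 and -0.72 for Per2, none of the 4 passed, at adjusted permutation p from 0.171 to 0.273. Without the 2 libraries farthest from the median of the list, r was -0.67 and -0.58 for Nr1d1 and -0.38 and -0.44 for Per2. Dbp had r = -0.87 with the CA3 list at a permutation adjusted p of 0.0535, and 0.05 without its 2 farthest libraries. The part that tissue makeup plays in the levels of these genes was not tested.

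The other genes of the clock were counted next. Of 30 further clock genes listed, 26 matched and were tested, and 0 passed at an edgeR adjusted p under 0.05; 17 were higher and 9 lower in RG2833, with a median log2 fold change of 0.02. At an unadjusted p under 0.05 there were 2 of 26 (7.69%), against 5.66% of all genes in either direction; both were higher in RG2833, the direction of 2.94% of all genes. They were Cry1, a repressor that partners PER, and Rorb, a nuclear receptor of the family that activates Arntl through ROREs.

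Cry1 was at 12.5, 13.7, 16.4, 15.9 and 14.01 CPM in the untreated rats and at 15.5, 16.1, 17.4, 19.2 and 21.0 CPM in the RG2833 rats. All 5 RG2833 libraries lay above the untreated mean of 14.5 CPM, and the groups overlapped between 15.5 and 16.4 CPM. Between the groups the log2 fold change was 0.30 (SE 0.11; edgeR adjusted p = 0.841; exact permutation p = 0.0397 before any adjustment). Its relative Cry2 was at 171 ± 12.8 CPM without and 177 ± 8.64 CPM with RG2833 (SD, n = 5 each), with a log2 fold change of 0.05 (SE 0.06). Leaving out a single library moved that of Cry2 between 0.02 (untreated replicate 2) and 0.10 (untreated replicate 3).

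Rorb was at 11.3, 10.2, 19.3, 15.2 and 12.8 CPM in the untreated rats and at 12.3, 17.8, 18.2, 23.6 and 23.4 CPM in the RG2833 rats. Between the groups the log2 fold change was 0.47 (SE 0.21; edgeR adjusted p = 0.841; exact permutation p = 0.103), and the unadjusted p was over 0.05 in 8 of the 10 fits without a single library. Its order over the libraries was that of the 5 astrocyte markers, with r = 0.99 and rho = 1 (permutation adjusted p = 0.000775 and 0.00155), and r = 0.98 without the 2 libraries farthest from the median of that list. Cry1 had r = 0.88 and rho = 0.95 with the same list (permutation adjusted p = 0.0233 and 0.00568), and 0.85 without those 2. Cry1 also passed with the endothelium list (r = 0.82, permutation adjusted p = 0.0422; 0.83 without the 2 libraries farthest on it) and the neocortex list (r = 0.83, permutation adjusted p = 0.0415; 0.80 without the 2 farthest on it). By Spearman's rho, 0.76 and 0.85, neither passed, at adjusted permutation p of 0.171 and 0.0845. The summed astrocyte markers were at 4914 to 7022 CPM without and 5539 to 7685 CPM with RG2833 (exact permutation p = 0.0714, unadjusted), and none was at 0. The part of tissue makeup in the levels of Rorb and Cry1 was not tested. Arntl had r = 0.76 with the list, at a permutation adjusted p of 0.0535.

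Npas2, which can replace Clock in the forebrain, was the clock gene with the widest spread among those named, by 4.14 times from the lowest to the highest library. It was at 51.3, 37.1, 132, 65.6 and 54.3 CPM in the untreated rats and at 57.8, 60.5, 60.5, 122 and 154 CPM in the RG2833 rats. Untreated replicate 3 and RG2833 replicates 4 and 5 stood above 120 CPM and the other 7 below 66 CPM, and both groups held libraries of each kind. The log2 fold change was 0.42 (SE 0.38), 0.80 without untreated replicate 3 and 0.15 without RG2833 replicate 5. Because Npas2 splits the libraries in this way, its relation to the 13 marker lists is given within the other 7 libraries, a set chosen after its values were seen. Over all 10 libraries 7 lists passed: neocortex, microglia, endothelium and astrocytes with a positive r, and neurons, CA3 and dentate granule cells with a negative one. By Spearman's rho 2 of these 7 passed, neocortex and astrocytes, and the other 5 had adjusted permutation p from 0.0845 to 0.171. Within the 7 libraries 1 of the 13 passed, neocortex, with r = 0.90 (exact permutation p = 0.00278, adjusted p = 0.0361) and rho = 0.93 (exact permutation p = 0.00675, adjusted p = 0.0877). There r was 0.75 for astrocytes and -0.74 for dentate granule cells, both at an exact permutation adjusted p of 0.185, 0.67 for microglia and between -0.02 and 0.09 for endothelium, neurons and CA3. Whether the lists differ in this relation was not tested. The summed neocortex markers were at 304, 249 and 306 CPM in those 3 libraries and at 162 to 213 CPM in the other 7, and none was at 0. The list was not uniform, since Cux2 was at 141, 92.4 and 106 CPM in those libraries and at 28.3 to 59.9 CPM elsewhere, whereas Lamp5 was at 52.3, 48.6 and 42.5 CPM against 47.2 to 71.5 CPM. The part of tissue makeup in the Npas2 level was not tested.

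Among the others named in any case, Bhlhe40, which encodes an E-box repressor, was at 61.0 ± 12.01 CPM without and 56.3 ± 5.44 CPM with RG2833 (SD, n = 5 each), with a log2 fold change of -0.11 (SE 0.13). Its highest libraries were untreated replicates 3 and 4, at 75.5 and 72.1 CPM, and leaving out either gave a log2 fold change of -0.03 and -0.05, respectively. The log2 fold change of Bhlhe40 was -0.19 without untreated replicate 1, its lowest library, at 48.6 CPM. Tef, a relative of Dbp, was at 348 ± 16.8 and 364 ± 19.7 CPM (SD, n = 5 each), with a log2 fold change of 0.07 (SE 0.06). Leaving out a single library moved that of Tef between 0.04 (RG2833 replicate 3) and 0.09 (untreated replicate 1). Unlike Dbp, Tef was not high in untreated replicate 3, at 345 CPM. Nfil3, a repressor that competes with DBP and TEF for D-boxes, was at 8.81 ± 1.83 and 8.95 ± 0.92 CPM (SD, n = 5 each), and was lowest in untreated replicate 3, at 5.85 CPM. Hlf and Rora were not analysed here.

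Cues that can shift clock genes acutely were set beside them. The 5 glucocorticoid-induced genes Fkbp5, Tsc22d3, Sgk1, Zbtb16 and Cdkn1a had log2 fold changes from -0.12 to 0.19 and 0 had an unadjusted p under 0.05, against 5.66% of all genes in either direction. The 4 activity-induced genes Fos, Junb, Egr1 and Nr4a1 were all lower in RG2833, from -0.11 to -0.48, and 1 of them, Junb, had an unadjusted p under 0.05, against 2.71% of all genes in that direction. Of the 4 temperature-responsive genes, the 2 cold-induced RNA-binding proteins Cirbp and Rbm3 had unadjusted p under 0.05, against 2.71% of all genes in that direction. The heat-shock genes Hsph1 and Hspa8 had log2 fold changes of -0.03 (SE 0.17) and -0.06 (SE 0.10), and their groups overlapped. Cirbp, whose product binds the mRNA of Clock, was at 39.5, 39.6, 50.9, 43.7 and 41.4 CPM in the untreated and 35.5, 36.3, 33.3, 30 and 33.4 CPM in the RG2833 rats. The groups did not overlap, and the log2 fold change was -0.35 (SE 0.08; edgeR adjusted p = 0.841). Rbm3 was at 38.7, 43.6, 40.4, 40.5 and 44.1 CPM in the untreated and 33.2, 37.6, 30.2, 21.0 and 23.4 CPM in the RG2833 rats. These groups did not overlap either, as was so for 1.00% of all genes, and the log2 fold change was -0.51 (SE 0.14; edgeR adjusted p = 0.841). Both were lowest in RG2833 replicate 4, the library with the lowest Ciart and the highest Arntl. The part of temperature or of collection hour in these values was not tested.

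Outside the clock lists, the genes whose pattern over the 10 libraries was nearest to that of Dbp, with group means subtracted, were Ager (r = 0.98), Tinf2 (0.96), Tifab (0.94) and Was (0.94). Ager, the receptor for advanced glycation end products, was at 2.63 CPM in untreated replicate 3 and 2.01 CPM in RG2833 replicate 5, against 1.02 to 1.41 CPM in the other 8. The most opposite were Ralgps2 (r = -0.98), Fitm2 (-0.98), Mtmr4 (-0.97) and Mrap2 (-0.97). Of 11680 genes compared, 178 had an absolute r above 0.9 with Dbp. For Arntl 3 genes did so: Fyb (r = 0.92), Myom1 (0.92) and Hdac4 (0.92), a class IIa histone deacetylase. Hdac4 was highest in RG2833 replicate 4, at 47.4 CPM, against 26.7 to 37.6 CPM in the other 9. Next came Trim67 (0.89), and the most opposite to Arntl were Ggnbp2 (-0.90), Stx8 (-0.89), Fam132a (-0.89) and Eif4e2 (-0.89). These values of r describe 10 libraries, and the genes were picked from all for their size.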

How the data were processed

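The authors deposited RSEM expected counts per gene and, in a second table, their TMM-normalized CPM, a signal per gene; 1 column of each is 1 rat. Per the submitters' processing notes, bcl2fastq 2.17, Bowtie2 2.1.0, RSEM 1.2.15, edgeR and the build rn6 were used; the annotation is not given in the sources used here. Of the expected counts, 11.6% were not whole (tolerance 1e-06 of a count). Dividing the deposited CPM signal by its step per read gave whole reads for 100% of its non-zero entries (tolerance 0.01 of a read, or 1e-05 of the value). The count test on these recovered reads called 0 genes. Ciart was matched through the RefSeq gene table of GRCr8, which gave names only; promoter sequences and their coordinates came from a separate RefSeq table of that assembly.

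Expected counts were rounded and fitted with edgeR 4.0.16 in R 4.3.3: filterByExpr (minimum count 10, total 15), TMM scaling, and the robust quasi-likelihood test of RG2833 against untreated in all 10 libraries. P-values were adjusted by Benjamini-Hochberg over 12161 genes, threshold 0.05. Log2 CPM used a prior count of 2. Exact two-sided permutation tests ran over 252 regroupings, whose smallest p is 0.00794. Correlations used two-sided permutation tests with 100000 resamples. The design named all pairs of 10 members; with Bhlhe41 not analysed, 36 pairs remained. In counts simulated for this comparison, 41.5% of 200 genes changed 1.5-fold and 80.0% of those changed 2-fold were recovered, with 12115 and 12121 genes tested.

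Members and lists were chosen with earlier results of these data known. All members were named, and of the further clock genes Cry1, Cry2, Npas2, Bhlhe40, Tef, Hlf, Nfil3, Rora and Rorb in any case and others at an unadjusted p under 0.05. For likeness, the 4 genes with the highest and the 4 with the lowest r to Dbp and to Arntl were named, passing over genes without a symbol. The comparison of members with marker lists was added after the data were seen. Whether the rats shared litters or cages is not stated in the sources used here. The p-values treat the rats as independent and measure the spread between these animals. No 2 libraries looked like copies: over 45 pairs the chi-square per gene was at least 7.43. Alternatives were other scalings, filters, tools and pseudocounts, each library left out, and a replicate block.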

Additional observations from a re-analysis of the deposited data

Results flagged for a closer look

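Of 60 sets of 5 values, members, named clock genes and marker lists in each group, 6 held a library whose gap to its nearest neighbour exceeded 0.71 of the group's range on the log2 CPM scale, where chance gives about 3 (1 in 20). Untreated replicate 3 was high for Per2 (49.2 CPM against 31.9 to 35.1, gap 0.782 of the log2 range) and for Nr1d1 (147 CPM against 109 to 112, gap 0.896). RG2833 replicate 5 was high for Dbp (188 CPM against 133 to 143, gap 0.784). In CPM itself, a scale added after the data were seen, these gaps were 0.817, 0.909 and 0.812, and untreated replicate 3 was past 0.71 for Dbp as well (0.759). In untreated replicate 3 the CA3 pyramidal markers were low (gap 0.829) and the microglia markers high (gap 0.787). In RG2833 replicate 1 the choroid plexus markers were high (gap 0.724), while its Per1 was the lowest of all libraries at 45.4 CPM. Untreated replicate 2, also rich in these markers, had the highest Per1, at 73.3 CPM. Across the 10 libraries r of Per1 with the choroid plexus list was -0.07.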

How the results depend on the processing

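Over 22 other fits of each of the 9 members, the sign of the log2 fold change differed in 4 of 198 cases, and the smallest adjusted p was 0.340. The sign changed without untreated replicate 3 for Per2 (0.066), Dbp (0.037) and Nr1d1 (0.019, and -0.14 without RG2833 replicate 5), and without untreated replicate 2 and RG2833 replicate 1 together for Per1 (0.015). Among further clock genes Nfil3 turned to -0.0076 in limma-voom, -0.094 without untreated replicate 3 (0.099 without untreated replicate 2), -0.029 when RG2833 replicate 2 was left out and -0.12 without untreated replicate 3 and RG2833 replicates 4 and 5 (a set chosen after seeing the data). DESeq2 called 7 genes against 0, none of them a member. Ciart had an unadjusted p over 0.05 in 3 fits: limma-voom with sample weights (0.0536), the fit lacking the 2 choroid-rich libraries (0.0567) and the fit lacking the set of 3 (0.0700). Without a single library, r of Arntl and Dbp ran from -0.13 to 0.49 (-0.13 without untreated replicate 3), and it was -0.23 without the set of 3 and 0.74 without RG2833 replicates 3 and 4. The 2 pairs of members that passed became 5 with the authors' CPM, 1 by Spearman's rho, 0 without the set of 3, and 0 to 3 without a single library. That count was 0 when untreated replicates 1 or 3 or RG2833 replicates 2 or 4 were left out in turn, 1 when RG2833 replicate 5 was, and 3 when untreated replicate 4 was. The cause was not tested. Same-numbered rats did not deviate together (r from -0.49 to -0.03 across genes), and with the replicate block 0 genes and 0 members were called, 401 genes against 688 had an unadjusted p under 0.05 (1266 in limma-voom), and the log2 fold change of Ciart was -0.58. In counts simulated for this comparison, 41.5% of genes changed 1.5-fold were recovered; smaller changes were not simulated, and recovery at the level of Ciart was not computed separately.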
